A study of Mus musculus with 8 samples.

Results

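Myoc, Inpp5j, C1ql3 and Thsd4 are 4 genes, of 23420 gene IDs in the abundance files, that were followed across the cultures and days of an RNA sequencing study of mouse astrocytes. They were chosen by their symbols, which had been picked from measured values of these same libraries, for a large rise in the MGS culture by day 32 or a large excess over the CV culture at day 32. No threshold was stated for that choice, and all 4 genes had a row in every library and passed the filter on low values. The study kept astrocytes in a culture that the labels name MGS, without explaining the letters, or in one named CV, and its descriptions use soft for MGS and hard for CV. RNA was taken on days 5 and 32 of each, which makes 4 groups of 2 libraries. Every group is labelled as mouse astrocyte with no other treatment, and strain, age, sex, cell preparation and the stiffness or make-up of either culture are not given in the sources used here. Nothing in the labels says whether the 2 libraries of a group came from separate cultures, so a p-value here speaks of library spread alone, part of which may be technical.

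The genes were described together as late risers of the soft culture, and the levels bear that out for only some of them. Myoc and Inpp5j rose late in MGS and were lower in CV at day 32 than at day 5. C1ql3 rose in MGS too, but it also rose in CV and stood at about the same level in both cultures at day 32. Thsd4 was already high in MGS at day 5 and low in CV at both days.

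Of these genes, 3 encode secreted proteins. Myoc encodes myocilin, a glycoprotein with an olfactomedin domain that is best known from the trabecular meshwork of the eye, where glucocorticoids induce it and where mutant forms cause glaucoma. C1ql3 encodes a C1q-like protein that organises synapses and binds the adhesion receptor Bai3 (Adgrb3). Thsd4, also called ADAMTS-like 6, is an extracellular matrix protein that binds fibrillin and promotes the assembly of microfibrils. Inpp5j encodes a lipid phosphatase inside the cell that removes the 5-phosphate of phosphoinositides, including the product of PI3-kinase that recruits the kinase Akt.

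The aligned sequence per library ran from 2.15 to 4.69 gigabases, and the CV libraries were the shallower ones at both days (2.15 to 2.99 gigabases). Replicates differed on the log2 scale with an SD of 0.191 and 0.197 in MGS at days 5 and 32, and of 0.321 and 0.465 in CV, so CV at day 32 was the noisiest group. In the fit, 14904 genes were tested. TPM, an abundance per transcript length that sums to the same total in each library, shifted for most genes with culture and day: the median difference over all tested genes was 0.56 on the log2(TPM + 1) scale for MGS against CV at day 32, 0.36 for day 32 against day 5 in MGS, -0.31 for the same days in CV and -0.14 for MGS against CV at day 5. With a median-of-ratios scaling these medians became -0.00, -0.02, 0.01 and 0.03.

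A window at 1 listed start is printed for 3 of the genes to show how unlike these windows are, since the values below set their time courses side by side. The windows are from RefSeq on GRCm38.p6, each of 300 bases, written 5′ to 3′ on the strand of the gene. Each runs from 250 before to 50 after the gene start that the abundance files also give. The table held no window for Inpp5j. That of Myoc is chr1:162638900-162639199 on the plus strand, with the motif TATAAA in capitals. The window of C1ql3 is chr2:13010815-13011114 on the minus strand, with every CG pair in capitals. In GENCODE the 5′ end of C1ql3 is at 13011806, so this window lies wholly inside that gene. For Thsd4 the window is chr9:60510986-60511285 on the minus strand, with the motif CAGCTG in capitals. The RefSeq span of Thsd4 reaches 60522113, so this window is not at the 5′ end of that span.
Myoc: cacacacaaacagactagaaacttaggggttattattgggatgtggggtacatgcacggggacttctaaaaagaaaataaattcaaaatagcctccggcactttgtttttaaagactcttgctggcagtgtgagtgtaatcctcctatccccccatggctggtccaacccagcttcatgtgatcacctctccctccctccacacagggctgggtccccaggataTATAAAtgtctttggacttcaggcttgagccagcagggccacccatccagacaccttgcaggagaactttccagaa
C1ql3: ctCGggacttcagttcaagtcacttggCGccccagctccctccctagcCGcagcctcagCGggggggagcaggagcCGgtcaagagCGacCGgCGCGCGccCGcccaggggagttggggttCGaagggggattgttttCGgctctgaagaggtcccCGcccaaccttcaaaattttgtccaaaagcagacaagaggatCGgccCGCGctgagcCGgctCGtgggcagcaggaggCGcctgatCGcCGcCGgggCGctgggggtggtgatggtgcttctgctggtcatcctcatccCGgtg
Thsd4: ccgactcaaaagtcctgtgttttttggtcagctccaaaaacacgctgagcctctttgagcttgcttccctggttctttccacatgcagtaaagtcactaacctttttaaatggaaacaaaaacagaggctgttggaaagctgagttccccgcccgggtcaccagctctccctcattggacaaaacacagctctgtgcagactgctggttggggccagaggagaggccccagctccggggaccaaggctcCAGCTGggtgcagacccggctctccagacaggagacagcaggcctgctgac
The Myoc window held 48.7% G and C and 2 CG pairs, and its TATAAA began 26 bases before the start. The C1ql3 window held 66.3% G and C and 25 CG pairs, with a ratio of observed to expected CG pairs of 0.762 against a median of 0.384 over 32851 windows of the same length. That ratio was 0.114 for Myoc and 0.266 for Thsd4. In all, 6 motifs were searched on both strands, and they do not overlap one another in these 3 windows. TATAAA, the core of a promoter element at the start of many genes, was in 13.6% of all windows, CAGCTG (E-box, the same on both strands) in 16.3%, GGAATG (TEAD) in 14.7%, TGANTCA (AP-1) in 7.81%, AGAACA (1 arm of the glucocorticoid receptor motif) in 19.0% and TTGGCA (1 arm of the NFI motif) in 14.1%. The Thsd4 window held CAGCTG 1 base before the start, and a second RefSeq window of Thsd4, at chr9:60141171-60141470, held it 83 bases before its own start. None of the 6 motifs was in the C1ql3 window, which says only that these letters are not in those 300 bases.

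Myocilin RNA went from a modest level at day 5 to a level above 97.7% and 97.8% of all gene IDs in the MGS libraries at day 32. Myoc lies on chromosome 1 at 162639150 to 162649694 of mm10, plus strand. In MGS at day 5 it stood at 8.96 TPM in both libraries, and in CV at day 5 at 8.94 and 7.55 TPM. In MGS at day 32 it stood at 287 and 291 TPM. In CV at day 32 it stood at 0.807 and 0.813 TPM. Both late MGS libraries were therefore far above all others, both late CV libraries were far below all others, and the day 5 libraries of the cultures nearly touched. The group means were 8.96 ± 0.00121 and 289 ± 2.83 TPM in MGS and 8.25 ± 0.984 and 0.810 ± 0.00398 TPM in CV (SD, n = 2). As a description of the values it was picked on, mean TPM in MGS was 32.3-fold higher at day 32 than at day 5, and at day 32 it was 357-fold higher in MGS than in CV. The low end of that ratio rests on a mean depth of 1.41 and 0.868 reads per base, against 557.6 and 550.9 in MGS at day 32. MGS against CV at day 5 gave a log2 difference of 0.11 (SE 0.142, limma adjusted p = 0.542). Within CV, Myoc fell from day 5 to day 32 by 2.35 on the log2 scale (SE 0.142, limma adjusted p = 1.87e-05), a 10.2-fold lower mean TPM. Each of these tests shares a group with a contrast on which the genes were picked. The choice thus favoured low levels in MGS at day 5 and in CV at day 32. The order of the groups was MGS at day 32, then the day 5 groups, whose difference did not pass the test, then CV at day 32.

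**Figure D1:**
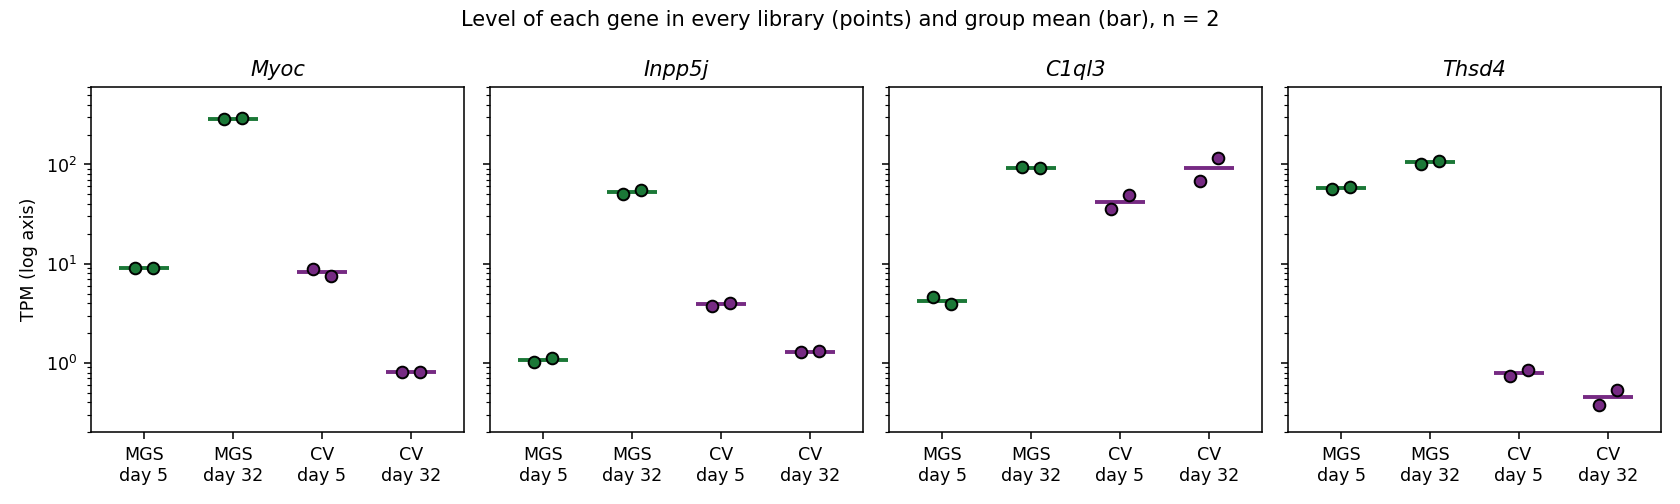
TPM (log axis) of Myoc, Inpp5j, C1ql3 and Thsd4 in each of the 8 libraries, with MGS in green and CV in purple; points are libraries and bars are means of 2 libraries. Myoc and Inpp5j are high only in MGS at day 32, C1ql3 is low only in MGS at day 5, and Thsd4 separates the cultures at both days.

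C1ql3 was low at first in MGS and ended level with CV. The gene lies on chromosome 2 at 13001887 to 13010864, minus strand. Its level was 4.58 and 3.91 TPM in MGS at day 5 and 35.4 and 49.2 TPM in CV at day 5. At day 32 it was 94.1 and 91.3 TPM in MGS. The late CV libraries, at 68.6 and 115.7 TPM, lay on either side of those of MGS. The lowest group was MGS at day 5, with every other library at least as high as the 35.4 TPM of the lower CV library of that day. Group means were 4.24 ± 0.476 and 92.7 ± 2.01 TPM in MGS and 42.3 ± 9.79 and 92.1 ± 33.4 TPM in CV (SD, n = 2). At day 5 C1ql3 was lower in MGS by a log2 difference of -3.03 (SE 0.258, limma adjusted p = 7.69e-05), which is a 9.97-fold lower mean TPM. Within CV it rose by 1.08 on the log2 scale (SE 0.258, limma adjusted p = 0.0113), or 2.18-fold in mean TPM. That rise in CV was 0.84 (adjusted p = 0.0648) without CV day 5 replicate 1 and 0.70 (adjusted p = 0.0154) without CV day 32 replicate 2. As a description, the rise in MGS was 21.9-fold in mean TPM, 4.16 on the log2 scale. The difference between the cultures at day 32 was 0.06 on that scale, which is 0.50 below the median difference of all tested genes, and was -0.57 with a median-of-ratios scaling. C1ql3 thus belongs to the set by its rise in MGS and not by an excess over CV.

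Thsd4 marked the MGS culture from the first sampling on. It lies on chromosome 9 at 59966931 to 60511035, minus strand, a span of 544105 bases. Its level was 56.7 and 59.2 TPM in MGS at day 5 and 101.9 and 108.8 TPM in MGS at day 32. In CV it was 0.740 and 0.858 TPM at day 5 and 0.376 and 0.529 TPM at day 32. The highest CV library was below 1 TPM and the lowest MGS library above 56 TPM, so the cultures did not overlap at either day. Means were 58.0 ± 1.79 and 105 ± 4.89 TPM in MGS and 0.799 ± 0.0839 and 0.453 ± 0.108 TPM in CV (SD, n = 2). At day 5 the difference between the cultures was 5.04 on the log2 scale (SE 0.147), a 72.6-fold ratio of mean TPM. It is given as a description. Thsd4 passed the filter on low values only through MGS libraries, so a call between the cultures could only favour MGS. Within CV the change from day 5 to day 32 was -0.31 (SE 0.147, limma adjusted p = 0.111). That change was -0.71 (adjusted p = 0.0224) with a pseudocount of 0.1, -0.28 (adjusted p = 0.0382) after quantile normalization, -0.39 (adjusted p = 0.0247) without CV day 32 replicate 2, and 0.31 (adjusted p = 0.0474) after a correction for length and GC content, so its direction is not settled. The CV values rest on a mean depth of 0.550 to 1.00 reads per base. As a description, the rise in MGS was 1.82-fold in mean TPM, the smallest of the 4, and the difference at day 32 was 233-fold.

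One more measure of Thsd4 differed between the cultures. Coverage divided by FPKM was one and the same number for 77.0 to 78.3% of a library's rows, and Myoc, Inpp5j and C1ql3 stood at that number in all 8 libraries. Thsd4 stood at 0.842 to 0.844 of it in the 4 MGS libraries and at 0.972 to 0.974 of it in the 4 CV libraries. Values of single transcripts were not analysed here, and the part of this in the difference between cultures was not tested.

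Inpp5j had the largest rise in MGS of the 4 genes, relative to its starting level. It lies on chromosome 11 at 3494272 to 3504821, minus strand. Its level was 1.02 and 1.11 TPM in MGS at day 5 and 3.78 and 4.01 TPM in CV at day 5. At day 32 it was 50.6 and 54.7 TPM in MGS. In CV at day 32 it was 1.28 and 1.32 TPM. The late MGS libraries stood apart from the other 6, and at day 5 the order of the cultures was the opposite of that at day 32. Means were 1.07 ± 0.0645 and 52.7 ± 2.93 TPM in MGS and 3.89 ± 0.158 and 1.303 ± 0.0253 TPM in CV (SD, n = 2). At day 5 Inpp5j was lower in MGS by a log2 difference of -1.24 (SE 0.140, limma adjusted p = 0.000297), a 3.65-fold lower mean TPM. In CV it fell from day 5 to day 32 by 1.09 on the log2 scale (SE 0.140, limma adjusted p = 0.000747), or 2.99-fold in mean TPM. As a description, the rise in MGS was 49.4-fold and the excess over CV at day 32 was 40.4-fold in mean TPM. The mean depth behind the low values was 1.97 and 2.37 reads per base in MGS at day 5 and 2.25 and 1.41 in CV at day 32.

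Set side by side, the 4 genes shared no single pattern at day 5 or within CV. In MGS against CV at day 5, 2 of the 4 were lower (Inpp5j and C1ql3), where 26.4% of all tested genes were called lower. Thsd4 was higher, where 22.5% of all were called higher. No call is drawn from Thsd4, since it reached 1 TPM only in MGS libraries. In CV at day 32 against day 5, 1 rose (C1ql3), against 16.0% of all tested genes called higher, and 2 fell (Myoc and Inpp5j), against 37.7% called lower. These tests share the MGS day 5 or the CV day 32 libraries with the contrasts on which the genes were picked, so they are not independent of the choice. The fall of Myoc in CV ranked 202 of 14904 from the lowest, whereas that of Inpp5j ranked 2250. By size, the rise in MGS ranked 2 for Myoc, 3 for Inpp5j, 6 for C1ql3 and 3363 for Thsd4 among 14904 genes. The excess of MGS over CV at day 32 ranked 3 for Myoc, 8 for Thsd4, 79 for Inpp5j and 10479 for C1ql3. Over all genes, 52.8% were called higher and 14.8% lower in MGS at day 32, and 35.0% rose and 7.53% fell in MGS with time, which bounds what a single call says. The share of calls that were higher was 78.0% for MGS against CV at day 32, and 50.1%, 47.1% and 61.3% with median-of-ratios, quantile and FPKM scaling. The same share was 82.3% in MGS with time (50.1%, 48.1% and 65.0% in that order) and 29.8% in CV with time (50.4%, 42.1% and 43.8%). No called difference of a member changed direction under these scalings.

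**Figure D2:**
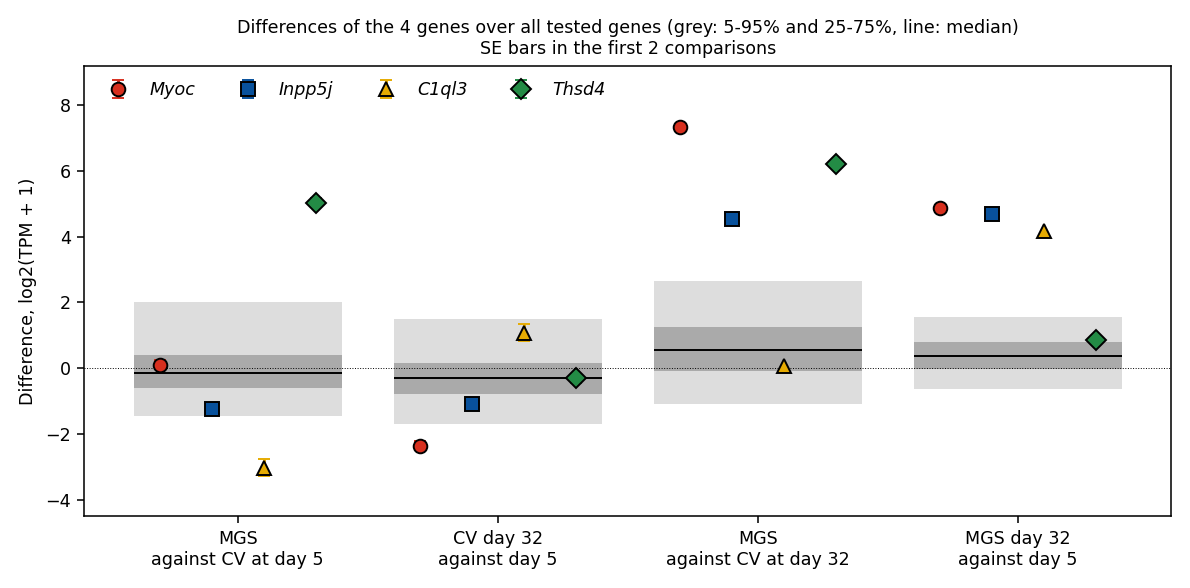
Difference in log2(TPM + 1) of each gene in the 4 comparisons, over the spread of all 14904 tested genes (light grey 5th to 95th percentile, dark grey 25th to 75th, line median). Bars are SE and are drawn only in the comparisons on which the genes were not picked. Those comparisons share libraries with the ones on which they were. Thsd4 lies at 5.04 at day 5 while Inpp5j and C1ql3 lie below 0, and C1ql3 lies at 0.06 at day 32.

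The time courses of Myoc and Inpp5j were the most alike among the 4. Their Pearson r over the 8 libraries was 0.93 on the log2(TPM + 1) scale, against 0.77 for Myoc and Thsd4, 0.53 for Inpp5j and Thsd4, 0.52 for Inpp5j and C1ql3, 0.18 for Myoc and C1ql3 and -0.35 for C1ql3 and Thsd4. These values describe 4 groups of 2 libraries that share culture, day and depth. Among 12139 genes with a mean of at least 5 TPM in some group, the 5 most like Myoc were Srl, Chd5, Tnr, Sema6b and Pfkm (r from 0.989 to 0.994). Of these, Tnr, which encodes tenascin-R of the brain's extracellular matrix, went from 2.55 ± 0.296 to 74.8 ± 6.89 TPM in MGS and from 2.07 ± 0.702 to 0.175 ± 0.113 TPM in CV (SD, n = 2). Chd5, a chromatin remodeller, stood at 14.4 ± 0.548 TPM in MGS and 0.356 ± 0.124 TPM in CV at day 32.

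Those most like Inpp5j were Pla2g3, Ttc39c, Cdh8, St8sia1 and Ccna1 (r from 0.988 to 0.993). Cdh8, a cadherin, was at 7.64 ± 0.641 TPM in MGS at day 32 and between 0.553 and 1.295 TPM on average in the other groups. For C1ql3 they were Hist1h2bp, Reep5, Scg2, Sbds and Ccdc104 (r from 0.978 to 0.988). Hist1h2bp is a histone gene with near-identical copies, so its values are uncertain, and Scg2, a granin of secretory vesicles, stood at 2.01 ± 0.366 and 15.0 ± 0.0983 TPM in MGS and at 11.7 ± 2.26 and 21.4 ± 6.17 TPM in CV. For Thsd4 they were Steap3, Sidt1, Slc6a20a, Lypd2 and Acot5 (r from 0.998 to 1.000), of which Steap3, a metalloreductase, stood at 89.3 ± 1.52 and 124 ± 4.89 TPM in MGS and at 8.005 ± 0.121 and 6.76 ± 0.768 TPM in CV. Sidt1 and Lypd2 were listed at 0 in all 4 CV libraries. An r above 0.95 was found for 503 genes with Thsd4, 224 with Myoc, 82 with Inpp5j and 30 with C1ql3. Of the 5 genes most like each, 4, 3, 3 and 0 were also among the 5 with median-of-ratios scaling, in the same order, so the list for C1ql3 depends on the scaling.

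The closest like gene was also a next-door neighbour. Pla2g3, which encodes a secreted phospholipase, lies on the plus strand at 3488227 to 3494166, tail to tail with Inpp5j and 106 bases from it in the files. In MGS it was at 0.314 and 0.509 TPM at day 5 and at 11.1 and 11.6 TPM at day 32. In CV it was at 0.935 and 1.49 TPM at day 5 and at 0.239 and 0.162 TPM at day 32. Like Inpp5j, it was high in the late MGS libraries alone, with CV above MGS at day 5. It reached 1 TPM in those libraries and in CV day 5 replicate 2, so its difference at day 32, 3.36 on the log2 scale, is given as a description. In CV it fell with time by 0.87 (SE 0.156, limma adjusted p = 0.00344). The difference at day 5 was -0.64 (SE 0.156, limma adjusted p = 0.0125), with adjusted p = 0.0953 without MGS day 5 replicate 1 and 0.0711 without CV day 5 replicate 2. In the GENCODE annotation the longest span of Pla2g3 runs on to 3499350, and 401 of the 5092 exon bases of Inpp5j lie under its exons. How strand entered the assignment of reads is not given in the sources used here, so reads of the genes' shared bases may not be told apart.

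C1ql3 overlaps Pter, a phosphotriesterase-related gene on the plus strand, by 1567 bases in the files and by 0 exon bases in GENCODE. Pter stood at 8.34 and 8.52 TPM in MGS and 15.4 and 18.3 TPM in CV at day 5. At day 32 it stood at 27.7 and 24.3 TPM in MGS and 33.1 and 49.3 TPM in CV. Its lowest group was MGS at day 5, as for C1ql3, but its cultures did not meet at day 32. It rose in MGS by 1.52 (SE 0.206, limma adjusted p = 0.00162) and in CV by 1.22 (SE 0.206, limma adjusted p = 0.00266). It was lower in MGS at day 5 by a difference of -0.92 (limma adjusted p = 0.00868) and at day 32 by -0.62 (limma adjusted p = 0.0306), and each of these calls was lost when 1 of several libraries was left out (adjusted p up to 0.0620 at day 5 and up to 0.160 at day 32). Reads in the shared 1567 bases have the same limit as for Pla2g3. The opposite-strand gene 7420461P10Rik overlaps Myoc by 2452 bases and was at 0 to 0.147 TPM, far under Myoc in every library at day 32.

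**Figure D3:**
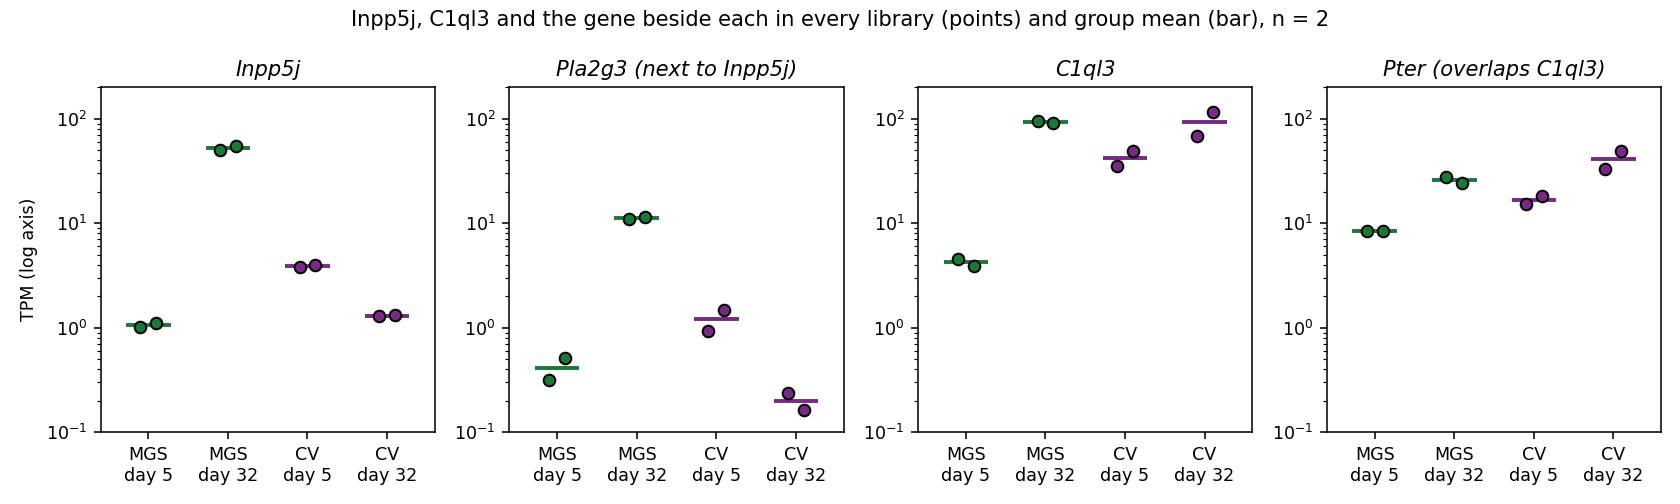
TPM (log axis) of Inpp5j and C1ql3 and of the gene that adjoins or overlaps each, in every library, with MGS in green and CV in purple; points are libraries and bars are means of 2. Pla2g3 follows the order of Inpp5j in the 4 groups except between its lowest ones, and Pter is lowest in MGS at day 5 as C1ql3 is.

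The next tested genes on either side were compared as well. At day 32, 52.8% of all tested genes were called higher in MGS, around a median difference of 0.56, so such a call is common. Beside Myoc, Vamp4 (40.1 kb away) and Prrc2c (22.1 kb away) were higher in MGS at day 32 by 1.31 (limma adjusted p = 0.000516) and 2.28 (limma adjusted p = 0.000512). Beside Thsd4, Myo9a (38.1 kb) was higher by 1.92 (limma adjusted p = 0.000498) and Lrrc49 (76.2 kb) by 1.27 (limma adjusted p = 0.000613). Selm, 9.88 kb from Inpp5j, was higher by 0.74 (limma adjusted p = 0.0144), a call lost with median-of-ratios and FPKM scaling. Beside C1ql3, Fam188a (582 kb) and Rsu1 (66.1 kb) differed by -0.28 and -0.24 at day 32 and did not pass the test (limma adjusted p = 0.339 and 0.406).

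The relatives of the 4 genes were taken from 8 lists, and their counts are read against the shares of all genes given above. List counts of 1 or 2 genes mostly moved by 1 when some single library was left out. The ligand relatives of C1ql3 are the other secreted C1q-like proteins and the cerebellins, and of these C1ql1 alone was above 10 TPM. Of the 7 listed, 3 passed the filter on low values. C1ql2 and Cbln1 reached 1 TPM only in MGS libraries, so that no count is drawn from them. C1ql1 was at 190 ± 16.02 TPM in MGS and 21.9 ± 3.37 TPM in CV at day 32 (log2 difference 3.07, SE 0.149, limma adjusted p = 3.90e-06), and was already higher in MGS at day 5 (1.19, limma adjusted p = 0.000523). C1ql2 was at 7.75 ± 1.19 TPM in MGS and 0.0217 ± 0.0307 TPM in CV at day 32. Cbln1 was near or under 1 TPM in all libraries, and the sign of its difference at day 32 turned with the scaling. At day 5 C1ql3 was lower in MGS, where C1ql1 was higher.

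Genes of the receptor families of these ligands moved together, though not each of them is known here to bind such a ligand. All 8 that were counted (Bai1 to Bai3, Nrxn2, Nrxn3, Grid1, Grik2 and Grik4) were higher in MGS at day 32, where 52.8% of all tested genes were, and all 8 fell in CV from day 5 to day 32, where 37.7% of all did. Both counts were 8 under all 18 alternatives. Their median difference at day 32 was 2.36 on the log2 scale, against 0.56 over all tested genes, and their median change in CV was -1.38, against -0.31. At day 5, 1 was higher and 2 were lower in MGS. Nrxn3, a presynaptic adhesion protein of the neurexin family, stood at 6.98 ± 2.28 TPM in MGS and 0.270 ± 0.0429 TPM in CV at day 32 (log2 difference 2.62, SE 0.196, limma adjusted p = 2.67e-05). Bai3 stood at 20.5 ± 0.564 and 2.43 ± 1.74 TPM (2.75, SE 0.330, limma adjusted p = 0.000294), and Grik2, a kainate receptor subunit, at 10.1 ± 0.219 and 0.454 ± 0.158 TPM (2.94, SE 0.198, limma adjusted p = 1.60e-05). Within MGS, 7 of the 8 rose with time, where 35.0% of all genes did. That count was 3 without any 1 of the 4 MGS libraries and 4 or 5 with the other scalings.

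Among the 9 other 5-phosphatases, 6 were higher and 1 was lower in MGS at day 32 (2 to 4 higher and 2 or 3 lower with the other scalings), and 4 rose in MGS with time (0 fell), a count of 1 or 2 without any 1 of the MGS libraries and of 9 without either CV day 32 library. Ocrl, the phosphatase of Lowe syndrome, was higher by 1.39 (SE 0.263, limma adjusted p = 0.00263) and Synj1, synaptojanin 1 of synaptic vesicle recycling, by 1.14 (SE 0.244, limma adjusted p = 0.00472). The exception was Inpp5d, the SHIP1 phosphatase of blood and immune cells, at 6.37 ± 0.0740 TPM in MGS and 33.6 ± 12.1 TPM in CV at day 32 (-2.19, SE 0.2402, limma adjusted p = 0.000187). In CV it rose by 4.87 from day 5 (limma adjusted p = 7.08e-06), as did all 12 microglia markers. At day 5, 1 of the 9 was higher and 1 was lower in MGS (3 lower without either CV day 32 library). In CV with time 1 rose and 2 fell (2 rose without CV day 32 replicate 1, 7 fell without CV day 32 replicate 2, and 0 fell without CV day 5 replicate 2).

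Of 15 genes of the PI3K-Akt core and other lipid phosphatases, 9 were higher and 2 lower in the MGS libraries at day 32 (5 to 8 higher with the other scalings), 8 rose and 1 fell in MGS with time, and in CV with time 2 rose and 7 fell. At day 5, 1 was higher and 4 were lower in MGS. The 9 of 15 higher at day 32 and the 4 of 15 lower at day 5 are near the shares of all tested genes, 52.8% and 26.4%. Of all tested genes, 35.0% rose in MGS and 37.7% fell in CV. Leaving out libraries moved these counts: 2 to 4 rose in MGS without any 1 of the MGS libraries, 12 fell in CV without CV day 32 replicate 2, and 5 were lower at day 32 without CV day 32 replicate 1. At day 5, 1 was lower without either MGS day 5 library or CV day 5 replicate 2, and 9 were without either CV day 32 library. Pdpk1, the kinase that activates Akt, was higher in MGS at day 32 by 2.85 (SE 0.345, limma adjusted p = 0.000304) and Phlpp2, a phosphatase that acts on Akt, by 1.61 (SE 0.231, limma adjusted p = 0.000716). Pik3cb, a catalytic subunit of PI3-kinase, was lower in MGS at day 5, at 5.17 ± 0.688 against 54.2 ± 11.4 TPM (-3.15, SE 0.261, limma adjusted p = 6.61e-05).

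The nearest relatives of Thsd4 lay on both sides at day 5. Of 6 ADAMTS-like genes 5 were tested, and at day 5 there were 2 higher in MGS (Adamtsl4 and Adamtsl1) and 3 lower (Adamtsl3, Papln and Adamtsl5). At day 32 4 were higher and 0 lower (1 to 3 higher and 1 lower with the other scalings), 3 rose in MGS with time (0 fell), and in CV with time 1 rose and 2 fell. Of these counts, the 2 higher at day 5 became 0 without either MGS day 5 library, the 3 that rose in MGS became 1 without MGS day 5 replicate 1 or MGS day 32 replicate 2, and the 2 that fell in CV became 1 without CV day 5 replicate 2. Adamtsl1 had the largest difference at day 32, at 14.3 ± 0.838 TPM in MGS and 4.14 ± 1.48 TPM in CV (1.60, SE 0.223, limma adjusted p = 0.000623). Of 19 genes of fibrillin microfibrils and elastic fibres, in contrast, 12 were higher and 3 lower in the MGS libraries at day 5, and 12 higher and 5 lower at day 32. Of all tested genes, 22.5% were higher and 26.4% lower at day 5, and 52.8% and 14.8% at day 32. With time 35.0% of all rose and 7.53% fell in MGS, and 16.0% rose and 37.7% fell in CV. Ltbp4, a latent TGF-beta binding protein of microfibrils, was at 87.3 ± 2.14 against 4.56 ± 0.105 TPM at day 5 (3.99, SE 0.153, limma adjusted p = 1.89e-06) and 4.56 higher on the log2 scale at day 32 (limma adjusted p = 1.03e-06). Fbn2, which encodes fibrillin-2, was higher in MGS by 3.58 at day 5 (limma adjusted p = 1.13e-05) and by 4.01 at day 32 (limma adjusted p = 4.75e-06). Within MGS 2 of the 19 rose and 6 fell with time (11 and 12 fell with median-of-ratios and quantile scaling, and 2 or 3 without any 1 of the MGS libraries), as Eln, the elastin gene, did by 1.64 (SE 0.135, limma adjusted p = 0.000219). In CV 6 rose and 9 fell, and at day 5 the 3 lower in MGS became 5 without either CV day 32 library.

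Relatives of Myoc with an olfactomedin domain were tested for 10 of 12 genes, with Lphn1 to Lphn3 under the symbols of the files. At day 32 8 were higher and 2 lower in MGS, with 6 rising and 0 falling in MGS over time (2 to 4 rising with the other scalings) and 1 rising and 8 falling in CV. Without any 1 of the MGS libraries 2 or 3 rose in MGS, without either MGS day 32 library 1 was lower at day 32, and without CV day 5 replicate 2 the fall in CV was called for 3. At day 5 3 were higher and 3 lower. Olfml2a stood at 52.9 ± 3.39 TPM in MGS and 0.388 ± 0.285 TPM in CV at day 32 (5.29, SE 0.191, limma adjusted p = 1.29e-06) and was already higher in MGS at day 5 (3.91, SE 0.191, limma adjusted p = 5.61e-06). Of 14 tested glucocorticoid response genes of 16, 11 were higher and 0 lower in the MGS libraries at day 32 (6 to 9 higher and 1 to 3 lower with the other scalings), 5 rose and 2 fell in MGS with time, and 4 rose and 4 fell in CV. At day 5 6 were higher and 2 lower. Without MGS day 5 replicate 1, 3 were higher at day 5 and 2 rose in MGS, without any other MGS library 3 rose, and without either CV day 32 library 9 did. In CV 2 rose and 2 fell without CV day 5 replicate 2, and 7 fell without CV day 32 replicate 2. Klf9, a transcription factor induced by glucocorticoids, was higher in MGS at day 32 by 3.45 (SE 0.428, limma adjusted p = 0.000341), and the receptor gene Nr3c1 rose in MGS by 1.31 (SE 0.255, limma adjusted p = 0.0068). Angptl4, a secreted inhibitor of lipoprotein lipase, fell in MGS with time by 2.32 (SE 0.130, limma adjusted p = 7.24e-05).

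**Figure D4:**
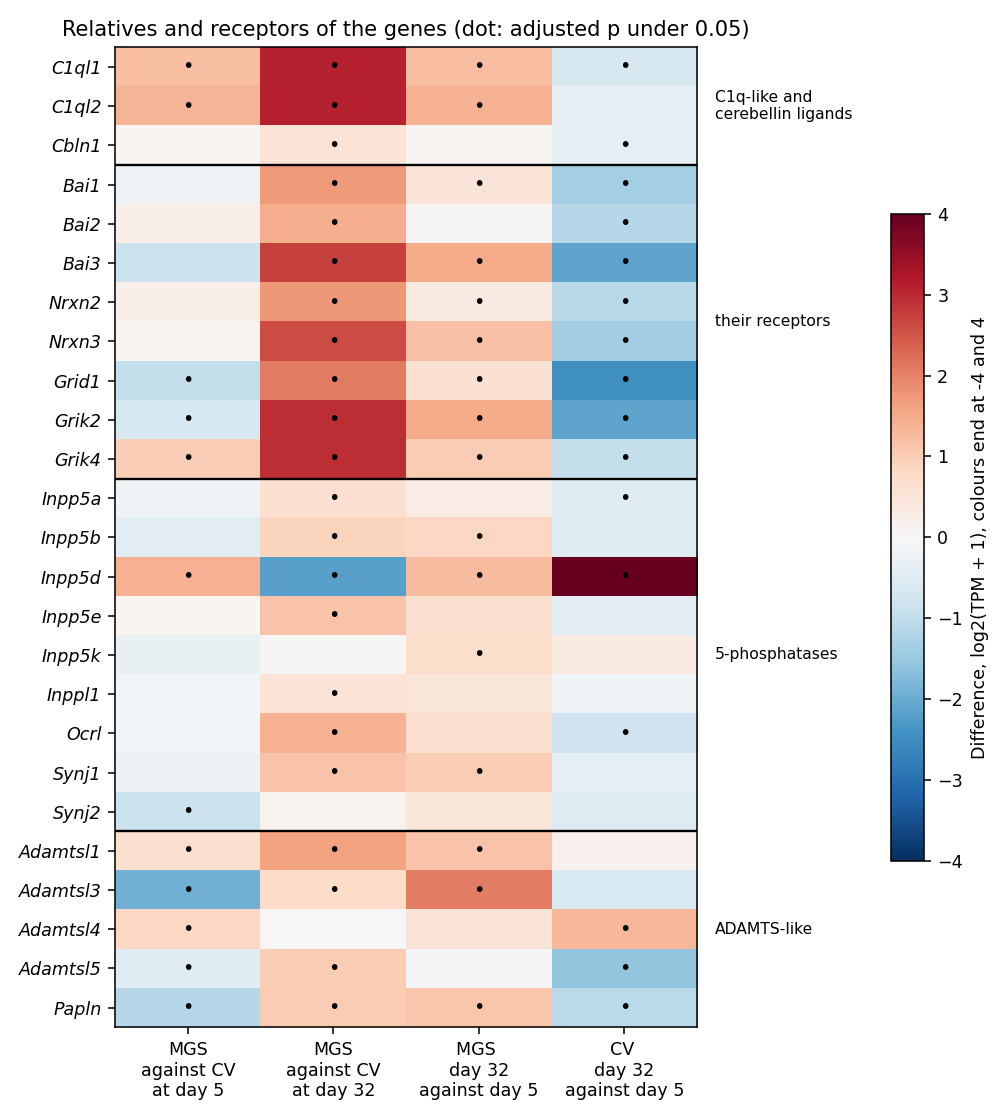
Difference in log2(TPM + 1) of the tested relatives of C1ql3, genes of their receptor families, the 5-phosphatases and the ADAMTS-like genes (rows) in the 4 comparisons (columns), red for higher in the first group and blue for lower, with a dot where the limma adjusted p was under 0.05 in fits of 2 libraries a group. All 8 genes of the receptor families are higher in MGS at day 32 and lower in CV at day 32 than at day 5, and Inpp5d is the one 5-phosphatase lower in MGS at day 32.

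Markers of several cell types moved with the 4 genes in some comparisons and against them in others. In bulk samples fewer cells of a type and less RNA per cell cannot be told apart. Slc22a6, Tie1 and, where tested, Mog and Opalin were at 0 in every CV library. They could pass the filter on low values only through MGS libraries, so a call between the cultures could only favour MGS. Such calls are left in the counts below but add no evidence to them. Tmem212 was at 0 there as well, but only its changes with time are counted below. Astrocyte markers were high in all groups but unequal, with a summed level of 17638 to 17860 TPM over 12 genes in MGS at day 5, 3883 to 4099 in CV at day 5, 14782 to 14799 in MGS at day 32 and 1743 to 2273 in CV at day 32. At day 32, 11 of the 12 were higher in MGS (1 lower), and 10 fell and 0 rose in CV with time. With the rises of Myoc and Inpp5j in MGS went those of ependymal markers, of which 9 of 9 rose (0 fell), from a sum of 550 to 568 TPM at day 5 to 1611 to 1648 TPM at day 32, while in CV they went from sums of 168 to 185 to sums of 279 to 280 TPM (6 of 9 rose), with Tmem212 at 0 in all CV libraries. Other markers rose in MGS as well, where 35.0% of all tested genes did: 7 of 12 of microglia (1 fell), 6 of 12 of astrocytes (2 fell) and 5 of 8 of oligodendrocyte precursors (0 fell). Their median changes were 0.47, 0.46 and 0.67 on the log2 scale, in that order, against 0.36 over all tested genes. With the difference of Thsd4 between the cultures went meningeal fibroblast markers, of which 12 of 12 were higher in MGS at both days, at 12551 to 14445 against 374 to 395 TPM at day 5 and 13864 to 13872 against 354 to 494 TPM at day 32, with Slc22a6 at 0 in all CV libraries. With Thsd4 went also choroid plexus markers, 7 of 8 higher at day 5 and 8 of 8 at day 32 (12695 to 17100 against 164 to 167 and 2015 to 2031 against 107 to 123 TPM), with Kl at 0 in CV at day 5. Mural cell markers (5 of 6 tested higher at day 5, 6 of 6 at day 32), with sums of 257 to 260 against 46.5 to 47.9 and 168 to 175 against 31.3 to 47.5 TPM, followed the same order, with Kcnj8 and Abcc9 at 0 in CV at day 32. Of all tested genes, 22.5% were higher in MGS at day 5 and 52.8% at day 32. Within MGS, where Thsd4 rose with time, these markers went the other way. Of meningeal fibroblast markers 1 rose and 8 fell, of choroid plexus markers 0 rose and 5 fell, and of mural cell markers 0 rose and 3 fell.

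Endothelial markers (7 of 10 higher and 1 lower at day 5, 5 higher and 0 lower at day 32) summed to 227 to 232 and 152 to 169 TPM in MGS at days 5 and 32 and to 35.4 to 40.2 and 14.4 to 25.5 TPM in CV, with Tie1 at 0 in CV at both days and Cldn5 at day 32. Their 5 of 10 higher at day 32 is near the 52.8% of all tested genes. Their median difference at day 32 was 0.38 on the log2 scale, against 0.56 over all tested genes. Oligodendrocyte markers (8 of 9 tested higher at each day) summed to 1527 to 1581 and 1104 to 1122 TPM in MGS and to 110 to 115 and 147 to 170 TPM in CV, with Mog and Opalin at 0 in CV at both days and Ermn at day 32. Precursor markers of that lineage (3 of 8 higher and 3 lower at day 5, 7 higher and 1 lower at day 32) summed to 698 to 702 and 910 to 974 TPM in MGS and to 1157 to 1213 and 467 to 520 TPM in CV, with Gpr17 at 0 in CV at day 5. With the rise of C1ql3 in CV went all 12 microglia markers, from 97.8 to 113 TPM at day 5 to 6966 to 7632 TPM at day 32, against 596 to 600 and 782 to 783 TPM in MGS. Between the cultures they did not follow C1ql3. At day 5, where C1ql3 was lower in MGS, 11 of the 12 were higher there (0 lower). At day 32, where C1ql3 was about level, all 12 were lower in MGS. Of 9 tested neuron markers 4 were higher and 2 lower in the MGS libraries at day 32 and 3 higher and 4 lower at day 5, with sums of 95.4 to 103 and 141 to 145 TPM in MGS and 205 to 252 and 188 to 208 TPM in CV, and with Slc17a6 at 0 in all day 32 libraries. The 4 of 9 higher at day 32 is no more than the 52.8% of all tested genes called higher. The part of any of these cell types in the levels of Myoc, Inpp5j, C1ql3 and Thsd4 was not tested.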

How the data were processed

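Per the labels' protocols, TRIzol was used to extract RNA and a directional NEB Ultra II kit to make libraries. The submitters' processing notes name HISAT2 2.1.0, StringTie 1.3.4d and bcl2fastq, along with mm10 and hg38, neither of them with a role. The coordinates of the files are those of mm10. Use of strand, the annotation and read filters are not given in the sources used here. The authors deposited gene values as TPM and FPKM for each library, per the file headers. Coverage, the mean depth per base, was deposited beside them, per the file headers, and coverage over FPKM gave the aligned bases per library. TPM keeps no depth and counts were not recovered, so no counting interval is given.

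Rows of 1 gene ID were summed. Genes with at least 1 TPM in at least 2 of 8 libraries were tested as log2(TPM + 1) with limma 3.58.1 in R 4.3.3, in 1 fit of 4 group means (4 residual and a median of 3.30 prior degrees of freedom, variance trend, two-sided). Differences are on that scale, which understates those of low genes, and SEs come from the same fit. Adjusted p-values are Benjamini-Hochberg values over all 14904 genes, and a call is an adjusted p under 0.05. With 2 libraries against 2, an exact permutation test cannot give a p below 0.333, so none was made. Scripts were tested on simulated data. Groups came from sample titles, and identical values were found in 0 pairs of libraries.

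The 4 genes, the 18 gene lists and the tests were chosen with earlier results of these data known, so no list is independent evidence. Some genes of these lists are not reported here and are left out of the list counts. Members are given without a test in the contrasts they were picked on, and so is Thsd4 between the cultures at day 5. Named besides are the 5 genes most like each in Pearson r, the nearest tested genes on each side, and, in each list, at most the 4 called genes that differed most. The whole-series table, low-value filters, pseudocount, scalings, length and GC content (known for 14788 genes, 99.2%), the variance trend, a replicate block and leaving out each library were tried as alternatives.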

Additional observations from a re-analysis of the deposited data

Results flagged for a closer look

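Between day 5 and day 32 the libraries of the cultures moved in opposite directions for Myoc, Inpp5j and Thsd4. Of all tested genes, 35.0% were called as rising in MGS and 37.7% as falling in CV. The share of all genes whose libraries moved in opposite directions was not counted. The change in MGS minus the change in CV was 7.21 on the log2(TPM + 1) scale for Myoc, 5.79 for Inpp5j and 1.16 for Thsd4. These differences were not tested, since the genes were picked on one of the changes that enter them. For Thsd4 the change in CV did not pass its own test, and its direction turned with a correction for length and GC content.

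For 20 other named genes the difference between the changes passed limma's interaction test after Benjamini-Hochberg adjustment (largest adjusted p = 0.0306), with 2 libraries in each group. The median of this difference over all tested genes was 0.65, and 9243 of 14904 genes (62.0%) passed the same test, 7407 of them higher and 1836 lower, so a call is common. With median-of-ratios scaling 4270 were higher and 4713 lower, around a median of -0.07. Of the 20 named genes, Eln, whose 0.65 is the median itself, turned to -0.14 and -0.16 with median-of-ratios and quantile scaling, and Eln, Fam188a and Lrrc49 were not called with median-of-ratios scaling. Among the neighbours it was 4.002 for Pla2g3 beside Inpp5j (which passed the filter on low values mainly through the late MGS libraries), 3.12 for Prrc2c and 1.28 for Vamp4 beside Myoc, 2.43 for Myo9a and 1.16 for Lrrc49 beside Thsd4, and 1.09 for Fam188a beside C1ql3. Among receptors and relatives of C1ql3 it was 3.598 for Grik2, 3.59 for Bai3, 2.55 for Nrxn3 and 1.88 for C1ql1. Among phosphoinositide genes it was 3.58 for Pdpk1, -3.59 for Inpp5d and -1.60 for Pik3cg. For matrix genes it was 2.18 for Papln, 0.65 for Eln and -1.64 for Fbln5. Among relatives of Myoc and glucocorticoid response genes it was 3.10 for Lphn3, 2.51 for Olfm2, 2.21 for Nr3c1 and -0.67 for Sult1a1.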

How the results depend on the processing

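For the 4 genes, 139 of 144 tests under 18 alternatives kept their side of the threshold and, where past it, their direction. These tests include those of Thsd4 between the cultures at day 5, which could only favour MGS. Myoc at day 5, past the threshold in neither, turned from 0.11 to -0.16 after the length and GC correction. The exceptions were C1ql3 in CV with time, at 0.84 without CV day 5 replicate 1 (0.70 to 1.45 over the libraries left out), and Thsd4 in CV with time, at -0.71 with a pseudocount of 0.1, -0.28 after quantile normalization, -0.39 to -0.23 over the libraries left out and 0.31, now past the threshold, after the length and GC correction. The cause was not tested. Vamp4 in CV with time turned to 0.33 and 0.30 with median-of-ratios and quantile scaling, and Cbln1 at day 32 to -0.38 after quantile normalization.

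The number of genes called was 7291 at day 5, 7997 in CV with time, 10075 at day 32 and 6335 in MGS with time. It ran from 4523 to 10086, 4830 to 10676, 7431 to 11848 and 2455 to 9732 over the libraries left out, where a group of 1 library is assumed to vary like the others. The lowest counts came without MGS day 5 replicate 2 (4523; 4555 without replicate 1), without CV day 5 replicate 2 (4830) and without MGS day 5 replicate 1 (2455; 2746 without replicate 2). MGS with time gave 2677 and 2504 without MGS day 32 replicates 1 and 2, and 9723 and 9732 without those of CV day 32. Same-numbered libraries correlated in their deviations at 0.44 between CV at days 5 and 32, and from -0.13 to 0.17 between other groups. Whether the numbers pair the libraries is thus not settled. With a replicate block the counts were 7894, 8529, 10440 and 7209, and no call of the 4 genes changed. Low coverage limits Myoc, Inpp5j and Thsd4 where they stand near 1 TPM.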
